A study of Saccharomyces cerevisiae with 14 samples.

Results

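Proline and arginine breakdown in *Saccharomyces cerevisiae* was followed through 6 genes, which were found by their systematic names among the 6387 open reading frames of the array. They are *PUT4* (YOR348C), *PUT1* (YLR142W), *PUT2* (YHR037W), *PUT3* (YKL015W), *CAR1* (YPL111W) and *CAR2* (YLR438W), and all 6 were measured on all 14 arrays. The cells were of strain NRRL Y-12632 grown in synthetic complete medium, and every group shared this strain and medium. In 7 samples the cultures had received 30 mM HMF (5-hydroxymethylfurfural, a growth inhibitor that forms from hexose sugars when plant biomass is pretreated), added 6 h after inoculation, and in 7 control samples they had received none. Cells were harvested at 10, 30, 60 and 120 min, with 2 biological replicates per treatment at the first 3 times. The last time has 1 array per treatment and thus no replicate. Each array set the test RNA, labelled with Cy3, against RNA of untreated cells of 0 min, labelled with Cy5.

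Yeast can use proline and arginine as sources of nitrogen. Proline enters the cell through Put4p, a high affinity proline permease, and is oxidized in the mitochondrion by Put1p, proline oxidase, to pyrroline-5-carboxylate, which Put2p, a dehydrogenase of the same compartment, turns into glutamate. Put3p is the zinc cluster activator of *PUT1* and *PUT2*. Arginine is split by Car1p, arginase, into ornithine and urea, and Car2p, ornithine aminotransferase, passes the ornithine on toward pyrroline-5-carboxylate and proline, so that both amino acids reach glutamate through Put1p and Put2p. Several of these genes are known to be regulated by the nitrogen source as well as by their own substrates.

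All values below are log2 ratios of test to 0 min after the median of all genes of the array was subtracted, so that 1 unit is a doubling relative to the typical gene of that array. The deposited array medians ranged from -0.32 to 1.29, and replicates of a group differed in median by 0.05 to 1.01. Across genes, which are not independent replicates, the Pearson's r between replicates was 0.39 to 0.65. Test samples always carried the same dye, so that a dye effect would remain in a ratio to 0 min, while it cancels in the difference between HMF and control. Differences were tested with limma in a fit over all 14 arrays, and a gene is said to have risen or fallen where its p, adjusted by Benjamini-Hochberg over all 6387 open reading frames, did not exceed 0.05. The p-values measure the spread between these few arrays, and at 120 min the single arrays are assumed to vary like the others. The fit also treats all 14 arrays as independent. The paper describes replicated experiments with cells harvested at each time, so arrays of different times may come from the same culture. The SE, confidence intervals and p-values of means over the times do not allow for such repeated sampling.

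On average over the 4 times, 4 of the 6 genes were higher with HMF than in control, namely *PUT1*, *PUT2*, *CAR1* and *CAR2*, and these are the 4 enzyme genes among the 6. None was lower by the test, although the mean difference of *PUT4* was among the lowest of the array. Over all open reading frames 11.3% changed in this comparison, with 5.09% higher and 6.25% lower. The activator gene *PUT3* stayed within a narrow range in both treatments.

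**Figure D1:**
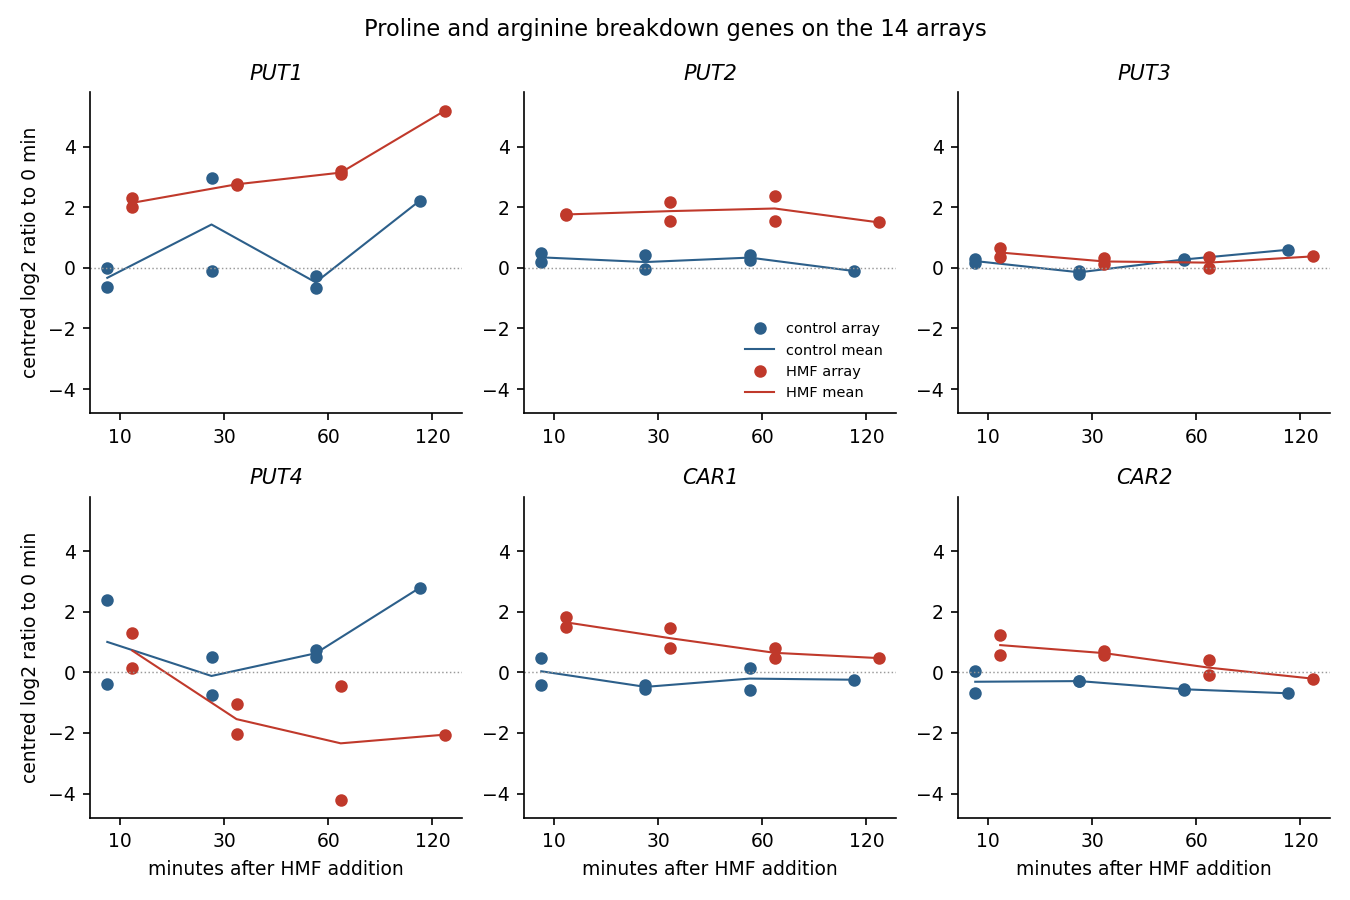
Log2 ratio to 0 min of each of the 6 genes on each array after median centring (vertical axis) against time in min (horizontal axis), with HMF and control in different colours, a point for each array and lines through the group means. *PUT2* lies above all control points at every time with HMF, *PUT1* has 2 high control points (2.96 at 30 min and 2.22 at 120 min), and the *PUT4* points of HMF spread down to -4.23.

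*PUT1*, which encodes the enzyme of the first step of proline breakdown, had the highest levels relative to 0 min. With HMF its log2 ratio was 2.29 and 1.99 on the 10 min arrays, 2.73 and 2.78 on those of 30 min, 3.08 and 3.20 on those of 60 min, and 5.19 at 120 min. In control it was -0.01 and -0.65 on the 10 min arrays, 2.96 and -0.10 on those of 30 min, -0.28 and -0.68 on those of 60 min, and 2.22 at 120 min. Thus 5 of the 7 control arrays lay below every HMF array, and the other two, replicate 1 at 30 min and the array at 120 min, did not. On the HMF array of 120 min *PUT1* ranked 2 from the top of all open reading frames. *PUT1* rose by 2.60 ± 0.44 (SE) with HMF on average over the 4 times, or 6.05-fold (95% confidence interval 3.02 to 12.1), with an adjusted p of 0.0067. This was the 7th highest mean difference of all 6387.

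The *PUT1* difference at 30 min rested on which control array was used. It was 1.33 ± 0.79 (SE, adjusted p = 0.47) with both, -0.20 when control replicate 2 of that time was omitted, and 2.86 (adjusted p = 0.049) when control replicate 1 was. When the 12 replicated arrays were omitted one at a time, the mean over the 4 times lay between 2.21 and 2.98 and always passed the test. Pooled over the groups with replicates, the SD of *PUT1* was 0.914, against a median of 0.335 over all genes.

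*PUT2*, the gene of the second mitochondrial step, separated the treatments completely. With HMF its log2 ratio was 1.79 and 1.73 on the 10 min arrays, 1.56 and 2.18 on those of 30 min, 1.56 and 2.35 on those of 60 min, and 1.50 at 120 min. In control it was 0.49 and 0.20 on the 10 min arrays, -0.05 and 0.43 on those of 30 min, 0.26 and 0.41 on those of 60 min, and -0.11 at 120 min. Every one of the 7 HMF values exceeded every one of the 7 control values, an order found for 2.36% of all open reading frames. *PUT2* rose by 1.58 ± 0.18 (SE), or 2.99-fold (95% confidence interval 2.24 to 3.999), with an adjusted p of 0.0016. Its level was also steady: the differences of the 4 times ranged from 1.42 at 10 min to 1.68 at 30 min, while those of *PUT1* ranged from 1.33 to 3.62.

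*CAR1*, for arginase, was highest soon after HMF was added. With HMF its log2 ratio was 1.81 and 1.49 on the 10 min arrays, 1.45 and 0.80 on those of 30 min, 0.48 and 0.81 on those of 60 min, and 0.47 at 120 min. In control it was 0.48 and -0.41 on the 10 min arrays, -0.42 and -0.54 on those of 30 min, 0.16 and -0.57 on those of 60 min, and -0.24 at 120 min. The HMF array of 120 min, at 0.47, was the only one not above every control array, the highest of which was a 10 min control at 0.48. *CAR1* rose by 1.20 ± 0.21 (SE) over the 4 times, or 2.29-fold (95% confidence interval 1.64 to 3.20), with an adjusted p of 0.0083.

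*CAR2*, for ornithine aminotransferase, had the smallest mean difference of the enzyme genes. Its log2 ratio with HMF was 1.23 and 0.57 on the 10 min arrays, 0.71 and 0.56 on those of 30 min, 0.40 and -0.09 on those of 60 min, and -0.21 at 120 min. In control it was 0.05 and -0.67 on the 10 min arrays, -0.29 and -0.28 on those of 30 min, -0.55 and -0.57 on those of 60 min, and -0.69 at 120 min. Of the HMF arrays, 5 were above every control array, and the remaining ones, replicate 2 at 60 min and the array at 120 min, were above the control of their own time. *CAR2* rose by 0.83 ± 0.18 (SE), or 1.78-fold (95% confidence interval 1.35 to 2.35), with an adjusted p of 0.018.

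The calls of both arginine genes depended on the centring. On the scale as deposited the median difference of all genes was -0.19. There the mean differences were 1.00 ± 0.35 (SE) for *CAR1* (adjusted p = 0.14) and 0.64 ± 0.34 (SE) for *CAR2* (adjusted p = 0.42), neither past the test. After centring they were 1.20 ± 0.21 and 0.83 ± 0.18 (SE), so that both the differences were smaller and the SE larger as deposited. *PUT1* and *PUT2* passed on both scales. On that scale 118 open reading frames changed in place of 724, and 21.2% of them were higher with HMF in place of 44.9%.

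*PUT4*, for the proline permease, varied most among the 6 genes. Its log2 ratio with HMF was 1.29 and 0.14 on the 10 min arrays, -2.03 and -1.06 on those of 30 min, -0.46 and -4.23 on those of 60 min, and -2.05 at 120 min. In control it was 2.39 and -0.39 on the 10 min arrays, -0.75 and 0.51 on those of 30 min, 0.74 and 0.52 on those of 60 min, and 2.79 at 120 min. Of the HMF arrays, 4 lay below every control array and the others overlapped with them, and the value of -4.23 was the 8th lowest of its array. The mean difference was -2.38 ± 0.69 (SE), or 5.22-fold lower, the 7th lowest of all, but with an adjusted p of 0.062 (unadjusted p = 0.0081) it did not pass the test. Its 95% confidence interval ran from -3.97 to -0.80.

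The replicates of *PUT4* differed widely, with a pooled SD of 1.47. From the first to the last time the differences were -0.29, -1.42, -2.97 and -4.85, an order that rested on single arrays. At 60 min the difference was -1.09 without replicate 2 of HMF and -4.86 without replicate 1. At 30 min it was -0.79 when control replicate 2 was omitted and -0.94 when HMF replicate 1 was. The sign at 10 min turned without replicate 2 of HMF (0.28) or replicate 1 of the control (1.10) of that time. Without the 120 min arrays the mean was -1.56 (adjusted p = 0.21). It passed the test on the scale as deposited (-2.58, adjusted p = 0.0019), with the replicate number as a block at each time (adjusted p = 0.033), and when replicate 1 of HMF at 60 min (-2.85, adjusted p = 0.017) or the second 10 min control array (-2.73, adjusted p = 0.038) was omitted.

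*PUT3*, the gene of the activator, differed little between the treatments. Its log2 ratio with HMF was 0.65 and 0.35 on the 10 min arrays, 0.31 and 0.11 on those of 30 min, -0.02 and 0.35 on those of 60 min, and 0.38 at 120 min. In control it was 0.30 and 0.15 on the 10 min arrays, -0.20 and -0.10 on those of 30 min, 0.31 and 0.24 on those of 60 min, and 0.59 at 120 min. The treatments overlapped over the 14 arrays. The mean difference was 0.08 ± 0.12 (SE, adjusted p = 0.75), with a 95% confidence interval of -0.20 to 0.36, and it was -0.11 as deposited and -0.03 after quantile normalization. The pooled SD of *PUT3*, 0.159, was the smallest of the 6 genes.

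**Figure D2:**
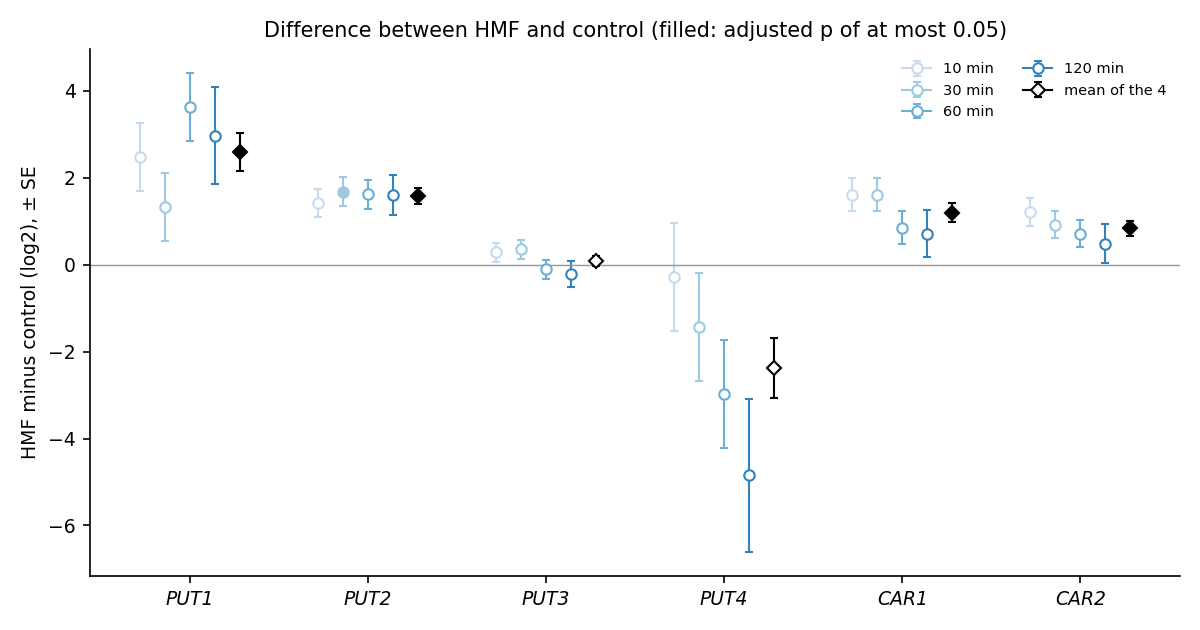
Difference between HMF and control in log2 (vertical axis) for each of the 6 genes (horizontal axis) at 10, 30, 60 and 120 min and as the mean of the 4 times, with error bars of 1 SE and filled symbols where the adjusted p was at most 0.05. The means of *PUT1*, *PUT2*, *CAR1* and *CAR2* are filled, as is the 30 min difference of *PUT2* (1.68), and the *PUT4* differences run from -0.29 to -4.85 with the widest bars.

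Set against the control array of the same number and time, *PUT2*, *CAR1* and *CAR2* were higher with HMF in 7 of 7 pairs. These differences ran from 1.29 to 1.95 for *PUT2*, from 0.32 to 1.89 for *CAR1* and from 0.48 to 1.24 for *CAR2*. *PUT1* was higher in 6 of 7, with -0.23 in the remaining pair, replicate 1 at 30 min. *PUT4* was lower in 6 of 7, with 0.53 in replicate 2 at 10 min. The labels state no pairing, and how many of all open reading frames gave such counts of pairs was not determined. The group means of the 4 enzyme genes were higher with HMF at all 4 times and those of *PUT4* lower at all 4, as was so for 18.1% and 17.8% of all open reading frames.

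Single times gave few calls. At 30 min *PUT2* passed the test (1.68 ± 0.33 SE, adjusted p = 0.040), 1 of the 6 genes where 2.57% of all passed. This call was lost on the scale as deposited, after quantile normalization, and when any 1 of the 12 replicated arrays was omitted (adjusted p 0.053 to 0.22). At 10, 60 and 120 min limma called none of the 6 genes, where 2.14%, 0.971% and 0.204% of all passed, although 4, 3 and 3 of them did so before adjustment, as 17.7%, 11.8% and 7.55% of all did. At 30 min 3 of them did so before adjustment, beside 15.5% of all.

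With the replicate number as a block, 3 of the genes passed at 10 min (*PUT2*, *CAR1* and *CAR2*), 2 at 30 min (*PUT2* and *CAR1*) and 2 at 60 min (*PUT1* and *PUT2*). Over all open reading frames this block also gave more calls, 7.14%, 5.25% and 2.69% at these times. A separate block at each time gave 2 at 10 min (*PUT2* and *CAR2*), 1 at 30 min (*PUT2*) and none at 60 min, beside 4.48%, 3.54% and 0.407% of all. At 10 min the difference of *CAR1* was 1.61 ± 0.38 (SE, adjusted p = 0.063 without the block) and that of *CAR2* 1.21 ± 0.32 (SE, adjusted p = 0.084). At 60 min that of *PUT1* was 3.62 ± 0.79 (SE, adjusted p = 0.098), and it passed on the scale as deposited (3.86 ± 0.69 SE, adjusted p = 0.0036). It stayed at 3.62 when one or the other control array of 30 min was omitted.

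The genes of both routes took different courses in time in their measured means. The *PUT1* mean with HMF was 2.14 ± 0.21, 2.75 ± 0.04 and 3.14 ± 0.09 (SD, n = 2) at the 3 replicated times, and the single array of 120 min gave 5.19. The *CAR1* mean was 1.65 ± 0.23 (SD, n = 2), 1.13 ± 0.46 and 0.64 ± 0.23 at the same times, with 0.47 at 120 min, and the *CAR2* mean was 0.90 ± 0.46, 0.63 ± 0.11 and 0.16 ± 0.35, with -0.21 at 120 min. The *PUT2* mean stayed between 1.50 and 1.96 throughout.

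Within HMF, the mean of 30, 60 and 120 min minus that of 10 min was 1.55 for *PUT1* (adjusted p = 0.24), -0.90 for *CAR1* (adjusted p = 0.16), -0.71 for *CAR2* (adjusted p = 0.19) and -2.70 for *PUT4* (adjusted p = 0.20). The *CAR2* value moved to -0.38 without replicate 1 of HMF at 10 min and to -1.03 without replicate 2. For *PUT2* it was 0.01 and for *PUT3* -0.25 (-0.10 and -0.40 without the same arrays). None of the 6 passed limma's test, while 3.29% of all open reading frames did, and before adjustment 4 passed, as 20.2% of all did. *PUT1* passed when one or the other control array of 30 min was omitted (adjusted p = 0.041), which enter its spread and not its value.

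In control the same later minus earlier difference was 1.39 for *PUT1*, -0.34 for *CAR1*, -0.20 for *CAR2*, -0.20 for *PUT2*, 0.02 for *PUT3* and 0.10 for *PUT4*. None passed limma's test, adjusted or not, where 0% of all passed with adjustment and 3.84% without. The *PUT1* value was 0.88 when the control array at 2.96, replicate 1 of 30 min, was omitted, and was 1.90 without the other control array of that time. The test that the 4 differences between HMF and control are equal gave an unadjusted p of 0.22 for *PUT4*, 0.29 for *PUT1*, 0.32 for *PUT3*, 0.34 for *CAR1*, 0.57 for *CAR2* and 0.95 for *PUT2*. No open reading frame passed it after adjustment (4.56% did before it), so that a change of the HMF effect with time was not detectable for any of the 6 genes at this number of arrays.

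The genes around both routes were counted in 6 further lists of 33 genes in all. Of the 33, 1 rose, 3 fell and 29 did not pass the test, a share of calls near that over all open reading frames (5.09% higher and 6.25% lower). The median of their mean differences was -0.10 beside 0.00 over all open reading frames and 1.01 for the 6 genes.

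None of the 3 genes of proline synthesis passed, with values from -0.33 to 0.14. These include *PRO3*, whose product makes proline from pyrroline-5-carboxylate. The 7 genes of arginine uptake and of the arginine regulators also gave no call (-0.36 to 0.49), nor did the 5 genes of the GATA factors and Ure2p, which govern nitrogen catabolite repression (-0.34 to 0.74).

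Among the 3 broad amino acid permease genes, *GAP1*, for the general permease, and *AGP1*, for a permease of low specificity, fell, where 6.25% of all did. The log2 ratio of *GAP1* ran from -2.40 to 0.76 (median -0.82) with HMF and from -0.59 to 0.93 (median 0.54) in control, and that of *AGP1* from -1.91 to 0.80 (median -0.23) and from -0.27 to 0.81 (median 0.51). The treatments overlapped for both. *GAP1* fell by 1.11 ± 0.28 (SE, adjusted p = 0.038) and *AGP1* by 0.88 ± 0.23 (SE, adjusted p = 0.039). Their differences were 0.44 and 0.15 at 10 min, turned to -2.11 and -1.62 by 30 min, and measured -1.94 and -1.40, then -0.84 and -0.67, at the later times.

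Both calls were close to the threshold. Neither passed on the scale as deposited (adjusted p = 0.080 for *GAP1* and 0.13 for *AGP1*) or in the adjusted two-factor test of the methods (0.086 and 0.079), and *GAP1* did not after quantile normalization (adjusted p = 0.065). Each kept its call without 4 of the 12 replicated arrays: replicate 2 of HMF at 30 min, replicate 2 of HMF at 60 min and replicate 1 of the control at 30 min for both, with replicate 1 of the control at 10 min for *GAP1* and replicate 1 of HMF at 10 min for *AGP1*. Without each of the other 8 the adjusted p was 0.052 to 0.089 for *GAP1* and 0.066 to 0.086 for *AGP1*.

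Of the 10 genes of allantoin and urea use, 1 passed, where 11.3% of all did, and it was *DUR3*, for a urea permease. Its log2 ratio ran from -1.84 to 0.78 (median -1.06) with HMF and from 0.01 to 1.01 (median 0.73) in control. The HMF means were below those of control from 30 min on, with differences of 0.16, -1.73, -1.95 and -2.38 at the 4 times. *DUR3* fell by 1.47 ± 0.17 (SE, adjusted p = 0.0017). Urea is the other product of arginase, and the gene of the enzyme that degrades it, *DUR1,2*, had a mean difference of -0.36 that did not pass (adjusted p = 0.18).

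Of the 5 genes of glutamate and ammonium, 1 passed, where 11.3% of all did. It was *GDH2*, for the glutamate dehydrogenase that releases ammonium from glutamate. The log2 ratio of *GDH2* ran from 0.78 to 1.85 (median 1.10) with HMF and from 0.17 to 0.97 (median 0.56) in control. *GDH2* rose by 0.70 ± 0.14 (SE, adjusted p = 0.012), with differences of 0.90, 0.57, 0.34 and 0.97. Its call was lost on the scale as deposited (0.50, adjusted p = 0.58) and after quantile normalization (0.42, adjusted p = 0.19).

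**Figure D3:**
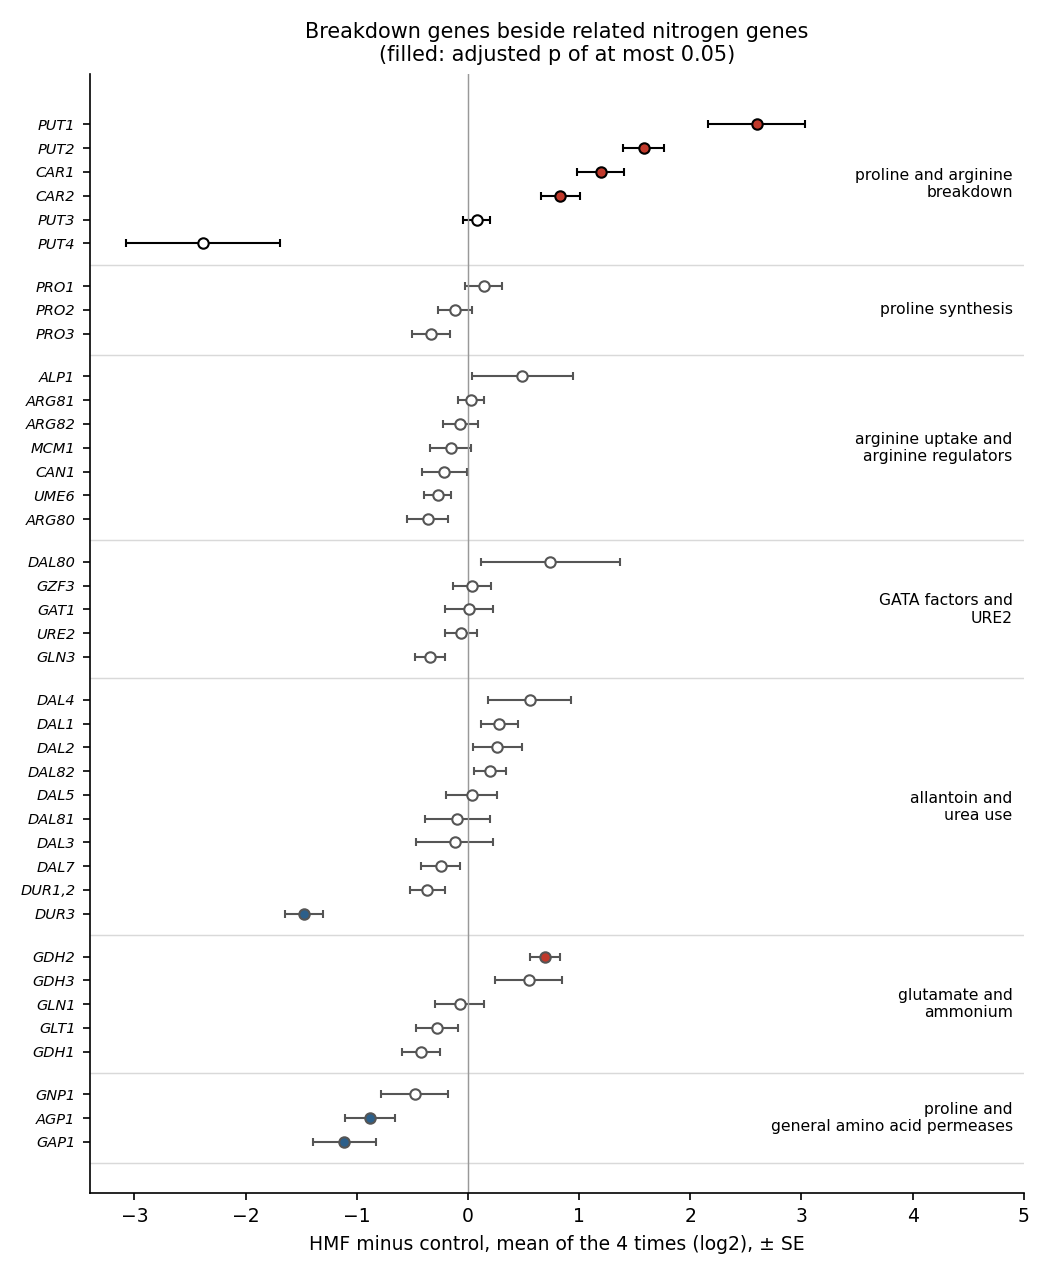
Mean difference between HMF and control over the 4 times in log2 (with error bars of 1 SE) for the 6 genes and the 33 genes of the 6 further lists, grouped by list, with filled symbols where the adjusted p was at most 0.05. *PUT1* (2.60), *PUT2* (1.58), *CAR1* (1.20) and *CAR2* (0.83) stand to the right, *PUT4* (-2.38) and *DUR3* (-1.47) to the left, and most of the other genes lie near 0.

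As a description, the genes with the highest Pearson's r to each of the 6 over the 14 arrays were looked up; all points share arrays, reference RNA and treatments. *SNQ2*, a drug efflux pump gene (r = 0.98), *PUP3*, of the proteasome core (r = 0.98), and *PYC1*, a pyruvate carboxylase gene (r = 0.96), were most like *PUT2*. *CAR1* was most like *PRE10*, also of the proteasome core (r = 0.94), *DDI1* (r = 0.92) and *MGL2* (r = 0.91). *CAR2* was most like YCR062W, YCL065W and *CCC2* (r = 0.90 to 0.92), and *PUT1* most like *LIP1*, YBR012W-B and *SDH6* (r = 0.91 to 0.92). The nearest genes to *PUT3* (*MSY1*, *PRP45* and *LEE1*, r = 0.74 to 0.80) and *PUT4* (YOL163W, *BNA1* and *WAR1*, r = 0.77 to 0.80) were less alike.

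Among themselves, *CAR1* and *CAR2* had the highest coefficient, with r = 0.89 over the 14 arrays, 0.81 over the 7 HMF arrays and 0.50 over the 7 control arrays. *PUT1* and *PUT2* had r = 0.59 over the 14 arrays, but -0.25 over the 7 HMF arrays and -0.83 over the 7 control arrays. The control arrays where *PUT1* was high, at 2.96 and 2.22, held the lowest control values of *PUT2*, -0.05 and -0.11. The control coefficient thus leans on these arrays. *PUT4* had r = -0.53 with *PUT1* and -0.61 with *PUT2* over the 14 arrays. Over the HMF arrays alone these were -0.48 and -0.41, and over the control arrays alone 0.06 and 0.05. The differences between these coefficients were not tested.

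**Figure D4:**
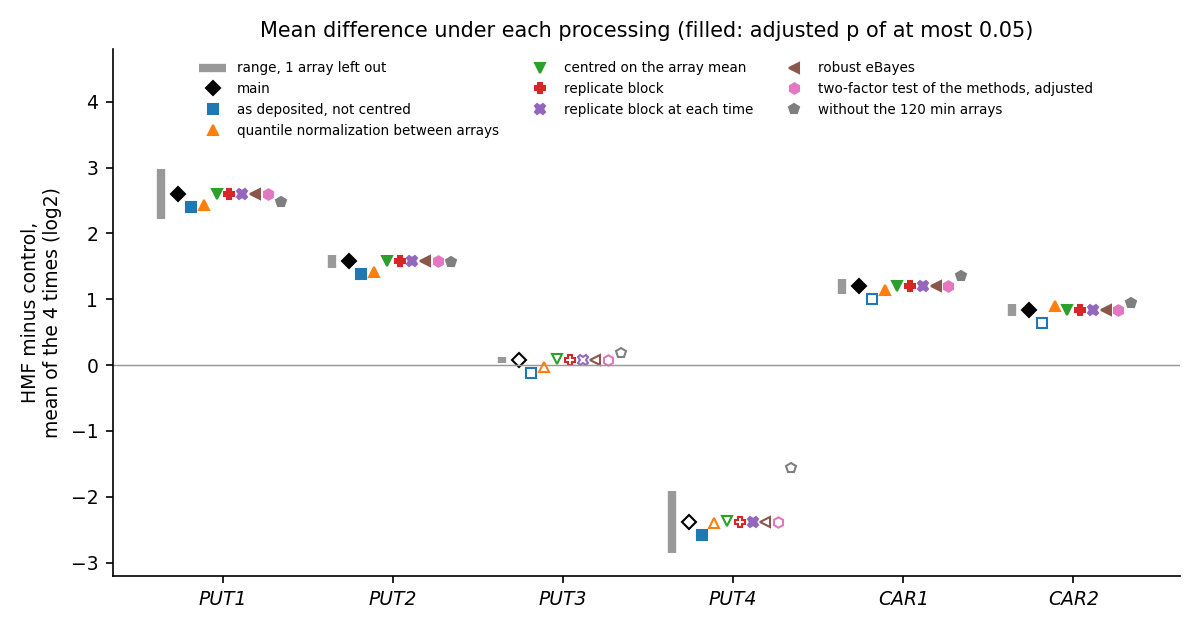
Mean difference between HMF and control over the 4 times in log2 for each of the 6 genes under each way of processing, with grey bars for the range when single replicated arrays were omitted and filled symbols where the adjusted p was at most 0.05. *PUT1* and *PUT2* are filled throughout, and *CAR1* and *CAR2* are open only on the scale as deposited. The *PUT4* symbols range from -2.58 to -1.56 and its grey bar from -2.85 to -1.91, and *PUT3* lies near 0 on both sides of it.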

How the data were processed

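The authors scanned the 2-colour slides, took median spot signals less background, inspected the spots and scaled every slide to CAB, a spike-in. How duplicate spots were combined is not stated. The deposited values are log2 ratios of test to 0 min RNA, complete for 6387 open reading frames. Intensities were not used here, so that precision is limited by how many arrays there are. The log base and direction were checked on fold changes the study lists. Groups came from the sample descriptions.

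Each array was centred on its median. A mean for each of the 8 groups was fitted with limma 3.58.1 in R 4.3.3 (lmFit, eBayes; 6 residual and 2.53 prior degrees of freedom), after a test on simulated data, with Benjamini-Hochberg adjustment over all open reading frames and a threshold of 0.05. Of these, 5840 were paired with a symbol in a RefSeq table and 547 keep systematic names. The 6 genes and the lists were chosen with earlier results of these data known. Genes named are the 6, list genes called on average over the 4 times, and the 3 genes most correlated with each of the 6. *PRO3* and *DUR1,2* are named for their place in the routes, and *DAL80* for its differences between times.

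Alternatives were the scale as deposited, quantile normalization, centring on the mean, replicate number as a block or as a block at each time, the two-factor test of the methods, robust eBayes, leaving out the 120 min arrays, and leaving out each of the 12 replicated arrays. The test named after the methods used the same group means and centred values without sharing variance between genes. Unlike in the study, it had no intensity filter or fold-change cutoff and was also read at single times. The labels give replicate numbers without stating a pairing. Deviations of same-numbered HMF and control arrays correlated at 0.31, 0.28 and 0.17 across genes at 10, 30 and 60 min, all above 0.1, and were treated as paired in the block. Those of groups of different times correlated at 0.016 to 0.36, so these values do not single out a pairing within a time. The replicate block is shared by HMF and control and has no term for each culture. Repeated sampling of a culture over time was thus not modelled.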

Additional observations from a re-analysis of the deposited data

How the results depend on the processing

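The mean differences of *PUT1* and *PUT2* passed the threshold under every alternative. Leaving out single arrays gave 2.21 to 2.98 for *PUT1*, 1.48 to 1.68 for *PUT2*, 1.09 to 1.31 for *CAR1*, 0.74 to 0.92 for *CAR2*, 0.03 to 0.13 for *PUT3* and -2.85 to -1.91 for *PUT4*, and 4 to 5 of the 6 genes called. As deposited, *CAR1* (1.00) and *CAR2* (0.64) lost their calls, *PUT4* (-2.58) gained one and *PUT3* turned to -0.11 (-0.031 after quantile normalization). *PUT4* (-2.38) also passed with a block at each time and in the two-factor test without adjustment. The replicate block raised the count of all open reading frames called on average from 724 to 1077, and to 1062 as a block at each time. The count was 118 as deposited and 497 to 726 with single arrays left out. The replicate block raised the called genes among the 6 from 0 to 3 at 10 min (2 as a block at each time), from 1 to 2 at 30 min and from 0 to 2 at 60 min, while the share over all rose from 2.14%, 2.57% and 0.971% to 7.14%, 5.25% and 2.69%, and changed no call of the 6 on average (the block at each time changed that of *PUT4*). As deposited, 0 passed at 30 min and 1 at 60 min (0.266% and 0.188% of all); quantile normalization and the adjusted two-factor test gave 0 at 30 min (0.36% and 2.88% of all). Without adjustment the two-factor test gave 4, 3, 2 and 1 at the 4 times and 2 for later minus earlier with HMF, beside 17.8%, 15.3%, 12.2%, 8.03% and 19.9% of all. Leaving out single arrays gave 0 to 1 in each of these counts except at 120 min. Signs that turned, none of them called: at 10 min *PUT3* (-0.39 as deposited) and *PUT4* (-1.68 to 1.10 without single arrays); at 30 min *PUT1* (-0.20 to 2.86); at 60 min *PUT3* (0.14 as deposited, -0.288 to 0.082 without single arrays); later minus earlier with HMF *PUT2* (-0.026 centred on the mean, -0.12 to 0.15 without single arrays). In control these were *PUT3* (-0.55 as deposited, -0.013 centred on the mean, -0.16 without 120 min, -0.057 to 0.093 without single arrays), *PUT4* (-0.47 as deposited, -0.060 with the replicate block, -0.75 without 120 min, -1.29 to 1.49 without single arrays), *CAR1* (-0.79 to 0.10) and *CAR2* (-0.56 to 0.16). The causes were not tested. With 2 arrays per group at most, and intensities not used here, signal over background could not be examined.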
